A study of Schizosaccharomyces pombe with 28 samples.

Results

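The subtelomeric genes of chromosome II of the fission yeast Schizosaccharomyces pombe were taken from ChIP-chip data, in which DNA recovered with an antibody is measured on spotted microarrays. Members were the array features whose names start with 1 of 8 sequencing clones from the ends of that chromosome: SPBC1348, SPBPB21E7, SPBPB10D8, SPBC359 and SPBC1683 on the left arm and SPBC8E4, SPBPB2B2 and SPBCPT2R1 on the right arm. This gave 49 of 4897 open reading frame (ORF) features and 47 of 4963 intergenic region (IGR) features, for 50 genes in all, of which 44 had both kinds of feature. Only 5 clones were represented: SPBPB10D8 (7 ORF and 4 IGR features), SPBC359 (6 and 6), SPBC1683 (11 and 11), SPBC8E4 (5 and 5) and SPBPB2B2 (20 and 21). No feature of the files used here carried a name from SPBC1348, SPBPB21E7 or SPBCPT2R1, which hold 26 coding genes in RefSeq, so the outermost genes, among them the telomere-linked helicase gene tlh2, the hexose transporter gene ght7 and the enolase gene eno102, were not analysed here. The members were set beside the remaining features named from chromosome II clones (SPBC), 1148 ORFs and 1085 IGRs.

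Subtelomeres are the stretches next to the chromosome ends. In fission yeast they carry heterochromatin marked by dimethylation of lysine 9 of histone H3 (H3K9me2), which the methyltransferase Clr4 lays down, and many genes for cell surface proteins, transporters and enzymes of nutrient use that are weakly transcribed in growing cells. Dimethylation of lysine 4 (H3K4me2), made by the Set1 complex, marks chromatin of transcribed genes. Swm1 is a homologue of the human lysine demethylase LSD1, and Hrp1 and Hrp3 are remodelling enzymes of the CHD family, which move or take apart nucleosomes.

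Each mark was measured in swm1Δ cells, in which the swm1 ORF had been replaced by a drug resistance marker, against wild type cells, labelled only as wt. Both strains were hybridised to the same array in the 2 dyes, with 2 arrays for each mark and kind of region, the H3K4me2 pair being named C1 and C2, and the H3K9me2 pair B1 and B2. Hrp1 and Hrp3 carrying a myc tag were each measured as immunoprecipitate (IP) against input DNA on 3 arrays for each kind of region, and histone H3 likewise in hrp1Δ cells. Growth conditions and the full genotypes are not given in the labels. The arrays of a pair came from independent ChIP samples according to the methods, and p-values measure the spread between these arrays. A culture was measured as a whole, so a mark lost from some cells and a mark reduced in every cell cannot be told apart, and the marks were not divided by the amount of histone H3.

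Several arrays stood apart. The deleted gene itself, swm1, had log2 ratios of −4.05 and −3.77 in its ORF on C1 and C2, but 0.02 on B1 and −1.44 on B2, so the deletion was not seen on B1, whose 2 labels also disagree on the dyes. The IGR label, which puts wild type in Cy3, was followed for B1. On 4 of the 12 Hrp arrays (array 2 for Hrp1 in ORFs and array 1 for Hrp1 in IGRs, Hrp3 in ORFs and Hrp3 in IGRs) the ratio correlated negatively with the other 2 arrays of the set (r from −0.117 to −0.288 across all features), and the deposited values of these 4 followed the dye labelled as input. The 6 sets of H3 values deposited for hrp1Δ cells were the same numbers as those deposited for Hrp1-myc, apart from a constant, in at least 99.9% of spots (log2 difference from the constant under 0.02), and are therefore not separate measurements.

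Some members cannot be told apart by sequence. The coding sequences of 11 of the ORF members have a near copy elsewhere in the genome (at least 85% identity over at least 50% of the length), 4 in SPBPB10D8 and 7 in SPBPB2B2, and the probe sequences were not given in the sources used here. For SPBPB2B2.07c, SPBPB2B2.14c, SPBPB2B2.15, SPBPB2B2.16c, SPBPB2B2.17c and SPBPB2B2.19c the near copies include genes of SPBC1348, at the end of the left arm. These features are counted on the right arm but may also read the left, which was not tested. All coding sequences are from RefSeq, build ASM294v3, where 44 of the 50 member genes were found by name. SPBPB10D8.04c, SPBPB10D8.05c, SPBPB10D8.06c and SPBPB10D8.07c, annotated as transporters, were identical over all 1140 bases, so that their 4 features may read 1 sequence. Their first 90 bases are shown because they stand for the whole group.
SPBPB10D8.04c: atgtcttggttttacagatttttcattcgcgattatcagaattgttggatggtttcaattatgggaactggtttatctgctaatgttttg
The membrane protein gene ftm7 (SPBPB2B2.17c) differed from SPAC750.04c on chromosome I at 1 base of 441, shown in capitals within bases 149 to 238 of both coding sequences.
ftm7: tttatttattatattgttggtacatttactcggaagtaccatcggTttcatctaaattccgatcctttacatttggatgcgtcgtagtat
SPAC750.04c: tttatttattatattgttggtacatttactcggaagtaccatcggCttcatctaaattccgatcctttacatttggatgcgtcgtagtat
In contrast, the neighbouring amino acid permease genes SPBC359.01 and aat1 (SPBC359.03c) were 84.97% identical over 1430 aligned bases, just under the limit set here for a near copy, and 20 of the 90 bases from 238 to 327 differed, again in capitals. They are shown because 1 of them was called for H3K4me2 and the other was not.
SPBC359.01: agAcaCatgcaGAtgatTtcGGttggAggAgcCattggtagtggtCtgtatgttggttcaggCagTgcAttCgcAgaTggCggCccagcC
aat1: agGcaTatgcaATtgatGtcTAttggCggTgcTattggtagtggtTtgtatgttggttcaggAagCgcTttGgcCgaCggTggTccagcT

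H3K4me2 was lower in swm1Δ cells over much of the left arm and over little of the right. Of the 49 ORF members, 21 (42.9%) were lower in swm1Δ than in wild type by limma at an adjusted p under 0.05 (Benjamini-Hochberg over all 4897 ORF features), whereas 13.8% of all ORF features and 14.5% of the remaining SPBC features were. Only 2 members (4.08%) were higher, against 16.9% of all features. By the rule given in the methods, a ratio of at least 2.0, in either direction, in at least 3 of 4 data points, 10 members (20.4%) were low against 2.14% of all features, and 0 were high against 3.66%. The median log2 ratio of the members was −0.40, with −0.52 on C1 and −0.32 on C2, and that of the remaining SPBC features was −0.04. The members' difference from the remaining SPBC features was −0.36 over both arrays, −0.49 on C1 and −0.28 on C2. The 87 ORF features of chromosome I subtelomeric clones lay between, with a median of −0.30 and 25.3% called lower.

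**Figure D1:**
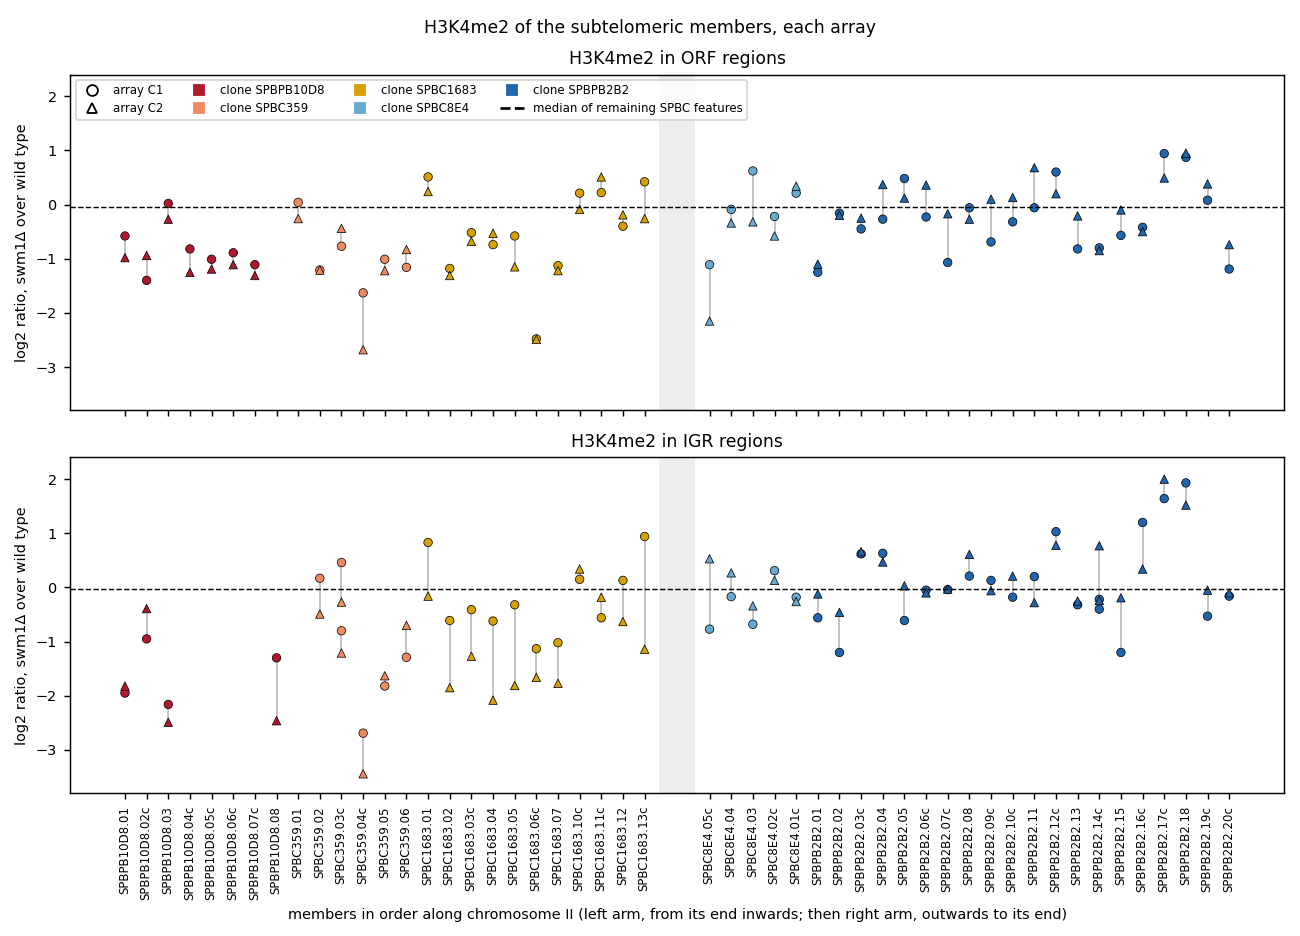
H3K4me2 of every member on each array, as the log2 ratio of swm1Δ over wild type (vertical axis), in order along chromosome II (horizontal axis), for ORF regions above and IGR regions below. Circles are array C1, triangles array C2, colours are clones, and the dashed line is the median of the remaining SPBC features. On the left arm 17 of the 24 ORF members were called lower, and 4 of the 25 on the right arm, against 13.8% of all ORF features.

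By clone, 6 of 7 ORF members of SPBPB10D8, 5 of 6 of SPBC359 and 6 of 11 of SPBC1683 were lower. On the right arm 1 of 5 in SPBC8E4 and 3 of 20 in SPBPB2B2 were. The shares for comparison are 13.8% of all ORF features and 14.5% of the remaining SPBC features. The median log2 ratios were −1.04, −1.06 and −0.60 in the left clones and −0.21 and −0.17 in the right ones. In order from the outermost measured gene inwards, 17 of the 20 members from SPBPB10D8.01 to SPBC1683.07 were lower, with SPBPB10D8.03, SPBC359.01 and pho841 as the exceptions. This stretch ends at SPBC1683.07, the last left-arm member called lower, so its count follows from that choice of end. The next genes inwards, ght4 (SPBC1683.08), a hexose transporter, and frp1 (SPBC1683.09c), a ferric reductase, are on the arrays by symbol and so are no members. Their ORF log2 ratios on C1 and C2 were −1.89 and −1.96 for ght4 and −0.76 and −1.56 for frp1, both lower in swm1Δ (limma, adjusted p = 3.14e-05 and 0.00198). Of the last 4 members of this arm, from the iron transporter gene pcl1 (SPBC1683.10c) to cha4 (SPBC1683.13c), 0 were called and their mean log2 ratios ran from −0.29 to 0.36, with 0.21 and −0.09 for pcl1.

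**Figure D2:**
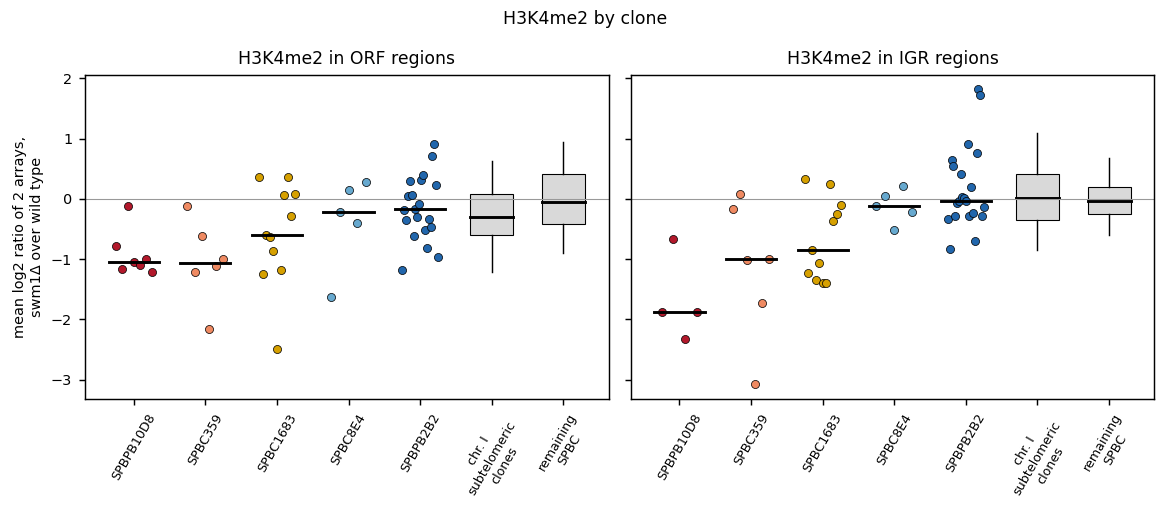
Mean H3K4me2 log2 ratio of swm1Δ over wild type on 2 arrays (vertical axis) for each member, grouped by clone (horizontal axis), in ORF regions (left) and IGR regions (right). Points are members and thick lines are medians. For the chromosome I subtelomeric clones and the remaining SPBC features, boxes span the quartiles and whiskers the 5th to 95th percentiles. In ORF regions the medians of SPBPB10D8 and SPBC359 were −1.04 and −1.06, against −0.04 for the remaining SPBC features.

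Among the genes annotated as enzymes, some were lower in swm1Δ and others, among them icl1 and the galactose genes, were not called. urh1 (SPBC1683.06c), a uridine ribohydrolase, had log2 ratios of −2.48 on C1 and −2.49 on C2 in its ORF, a 5.6-fold lower level in swm1Δ (mean −2.49 ± 0.01, SD, n = 2 arrays, limma adjusted p = 2.08e-06). The adenine/adenosine deaminase family gene SPBC1683.02 had −1.18 and −1.31 (2.37-fold lower, limma adjusted p = 0.000743). Both arrays put these genes well below the remaining SPBC features, and all 4 data points of each passed the 2.0 rule. The alanine racemase gene alr2 (SPBC359.02) had −1.21 on both arrays (limma adjusted p = 0.000851). The maltase gene mal1 (SPBC1683.07), which splits maltose into glucose, had −1.13 and −1.22 (limma adjusted p = 0.00108). The arylsulfatase gene SPBPB10D8.02c had −1.40 and −0.94 (limma adjusted p = 0.00133), and the glycosyl hydrolase gene SPBC1683.04 had −0.74 and −0.53. In each of these the arrays had the same sign, with SPBC1683.04 nearest the threshold (limma adjusted p = 0.0395).

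pfl7 (SPBC359.04c), a glycoprotein of the DIPSY family of adhesins, had log2 ratios of −1.63 and −2.68 in its ORF (4.46-fold lower in swm1Δ, mean −2.16 ± 0.74, SD, n = 2 arrays, limma adjusted p = 3.47e-05). It was low on both arrays, though they differed by more than those of urh1. The 4 identical transporter genes SPBPB10D8.04c to SPBPB10D8.07c ran from −1.11 to −0.82 on C1 and from −1.31 to −1.11 on C2, with means of −1.21 to −1.0. Since their coding sequences are identical, 4 like genes and 1 sequence read 4 times cannot be told apart. SPBPB10D8.07c was the lowest of its clone (limma adjusted p = 0.00087). The ABC transporter gene abc3 (SPBC359.05) had −1.01 and −1.22, and the cysteine transporter gene SPBPB10D8.01 had −0.58 and −0.98. Among all 16 ORF members annotated as transporters or permeases, 10 were lower, 0 were higher and the median log2 ratio was −0.70. The 4 identical genes each count among these 16 and among the 10, so the count is not one of separate sequences. Among the other 33 members, 11 were lower, 2 were higher and the median was −0.30. On the left arm alone, with the identical genes again each counted, 9 of 13 transporters and 8 of 11 other members were lower. Of all ORF features, 13.8% were lower and 16.9% were higher.

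aat1 had ORF log2 ratios of −0.77 and −0.44 (limma adjusted p = 0.0481), just past the threshold and not called in the deposited ratios (adjusted p = 0.0672), while its neighbour SPBC359.01 had 0.04 and −0.26 (limma adjusted p = 0.733), and the difference between them was not tested. The sequences printed above show that these permease genes are distinct over the window given. pho841 (SPBC1683.01), a phosphate transporter gene, had 0.51 and 0.24 and was the highest ORF member of its clone. Its relative pho84 (SPBC8E4.01c) on the right arm had 0.21 and 0.34, the highest of SPBC8E4, and neither was called (limma adjusted p = 0.212 and 0.355).

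On the right arm the calls were scattered. There 4 of 25 ORF members were called lower, a share near the 13.8% of all ORF features. The genes below are therefore given singly, and not as a feature of the arm. The innermost measured gene, SPBC8E4.05c, annotated as a fumarate lyase, had ORF log2 ratios of −1.11 and −2.15 (3.1-fold lower in swm1Δ, mean −1.63 ± 0.74, SD, n = 2 arrays, limma adjusted p = 0.000323). The amino acid permease gene SPBPB2B2.01 had −1.25 and −1.10 (limma adjusted p = 0.00108) and was the lowest of its clone. SPBPB2B2.20c, at the outer end of the clone, had −1.19 and −0.74 (limma adjusted p = 0.00466). Each of these genes was low on both arrays. The galactose genes, whose enzymes convert galactose to glucose phosphates, were not called in their ORFs: gal7 (SPBPB2B2.10c) had −0.32 and 0.13, gal10 (SPBPB2B2.12c) 0.60 and 0.20, and gal1 (SPBPB2B2.13) −0.82 and −0.21. The arrays were opposite in sign for gal7 and alike for the others, and gal1 had a limma adjusted p of 0.0982. ftm7 had 0.94 and 0.49 and the adjacent SPBPB2B2.18 had 0.87 and 0.95, the only ORF members higher in swm1Δ (limma adjusted p = 0.0246 and 0.0059). Both have a near copy on chromosome I, and ftm7 also has a near copy in SPBC1348 on the left arm.

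In IGR regions the left arm was again lower. The IGR features are named for a gene, and which of its sides they cover is not given in the names. Of 47 IGR members, 11 (23.4%) were lower in swm1Δ (limma, adjusted p under 0.05 over all 4963 IGR features), against 1.51% of all IGR features and 1.57% of the remaining SPBC features, and 3 (6.38%) were higher against 4.03%. By the 2.0 rule, here in all 3 data points since C1 was represented by 1 spot per feature, 7 (14.9%) were low against 0.463%, and 2 (4.26%) were high against 1.95%. All 11 that were lower lay on the left arm, 3 of 4 in SPBPB10D8, 4 of 6 in SPBC359 and 4 of 11 in SPBC1683. The median log2 ratio was −1.01 over the 21 IGR members of the left arm and −0.04 over the 26 of the right arm, against −0.03 over the remaining SPBC features.

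The IGR of pfl7 was the lowest of them, with log2 ratios of −2.69 and −3.44 (8.39-fold lower in swm1Δ, mean −3.07 ± 0.53, SD, n = 2 arrays, limma adjusted p = 2.52e-06). The IGR of SPBPB10D8.03 followed with −2.16 and −2.49 (limma adjusted p = 2.58e-05), and those of SPBPB10D8.01 and SPBPB10D8.08 had −1.95 and −1.82, and −1.30 and −2.46. The IGR of abc3 had −1.82 and −1.63 (limma adjusted p = 0.000337), that of urh1 −1.13 and −1.66, and that of mal1 −1.02 and −1.77. Each of these 7 passed the 2.0 rule in all 3 data points. On the right arm the IGR of ftm7 had 1.64 and 2.00 and that of SPBPB2B2.18 had 1.93 and 1.52, both higher in swm1Δ (limma adjusted p = 0.000208 and 0.000387). The IGR of gal10 had 1.03 and 0.78 (limma adjusted p = 0.0439) and was no longer called after median centring, without background correction or in the deposited ratios.

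Of the 44 genes with both an ORF and an IGR feature, the 2 means were both below 0 in 22 and both above 0 in 6. By limma, 9 were lower in both (SPBPB10D8.01, aat1, pfl7, abc3, mug14, SPBC1683.02, SPBC1683.04, urh1 and mal1), 8 only in the ORF, 1 only in the IGR, and 2 were higher in both. Of all features, 13.8% of ORFs and 1.51% of IGRs were lower, and 16.9% and 4.03% were higher. The overlap was not counted over all genes with both features, so these counts describe the members only. The gene lower only in its IGR was SPBPB10D8.03, with −2.16 and −2.49 there but 0.02 and −0.27 in its ORF. The opposite was seen for alr2, with −1.21 and −1.21 in its ORF and 0.17 and −0.49 in its IGR, and for SPBC8E4.05c, with an IGR of −0.77 and 0.53. Across these 44 genes, which share arrays and neighbours, ORF and IGR means had a Spearman correlation of 0.543, given as a description.

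H3K9me2 showed no member that passed the test. limma called 0 of 49 ORF members and 0 of 46 IGR members, and 0.0% of all features in either kind of region. At an unadjusted p under 0.05 there were 2 ORF members (4.08%, against 4.25% of all ORF features) and 2 IGR members (4.35%, against 5.35%). By the 2.0 rule, 0 ORF members were high against 3.66% of all features and 2 (4.08%) were low against 3.72%. The low ones were SPBPB2B2.03c, with −3.76 on B1 and −0.88 on B2, and SPBPB2B2.14c, with −0.98 and −1.14. In IGRs both arrays were read as deposited ratios, the only form in which B1 was available here. Medians over all IGR features were 0.47 on B1 and −0.06 on B2, so the arrays were not centred alike. Among IGR members, 3 (6.52%) were high against 4.77% and 0 were low against 2.65%. These 3 were the IGRs of SPBPB2B2.04 (4.97 and 1.0), of SPBPB2B2.20c at the outer end of the clone (1.62 and 1.03, all 4 data points past 2.0) and of urh1 (0.98 and 1.41). For urh1, 3 data points were above 2.0 and 1 was below its inverse. The median log2 ratio of the IGR members was 0.42, against 0.14 for the remaining SPBC features. The difference was 0.28 (0.21 on B1 and 0.31 on B2), and 18 of 46 members (39.1%) were above 0 on both arrays against 29.0% of all IGR features. Subtelomeric clones of chromosome I were much like the members, with an IGR median of 0.35 and 36.9% above 0 on both arrays.

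The 2 arrays did not rank the members alike. Their Pearson correlation across members was −0.0686 in ORFs and −0.137 in IGRs, whereas C1 and C2 had 0.815 in ORFs and 0.751 in IGRs. In 29 of 49 ORF members and 26 of 46 IGR members B1 and B2 had opposite signs, 59.2% and 56.5%, against 49.3% and 51.7% of all features, and across all features the correlations were 0.058 and 0.0121. With the B1 dyes of the ORF label, 20 of 49 ORF members (40.8%) had opposite signs, against 50.7% of all features. The isocitrate lyase gene icl1 (SPBC1683.11c) had the highest ORF mean, with 3.46 on B1 and 0.81 on B2, and urh1 had 0.99 and −2.26. This order rests on the dyes of B1, since with those of its ORF label icl1 averaged −1.32 and gal7 was highest, with 2.97 and 1.25. The identical genes SPBPB10D8.04c to SPBPB10D8.07c lay between 1.14 and 1.30 on B1 and between −0.46 and −0.14 on B2, so each array gave them similar values and the arrays differed. Dim spots, under 1.5 times the background in either dye, made up 25.5% of member ORF spots on B1 and 7.14% on B2. Over all ORF spots the shares were 15.5% and 5.16%, and on any H3K4me2 array at most 3.06% of member spots were dim. The part of dim spots in the spread was not tested.

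**Figure D3:**
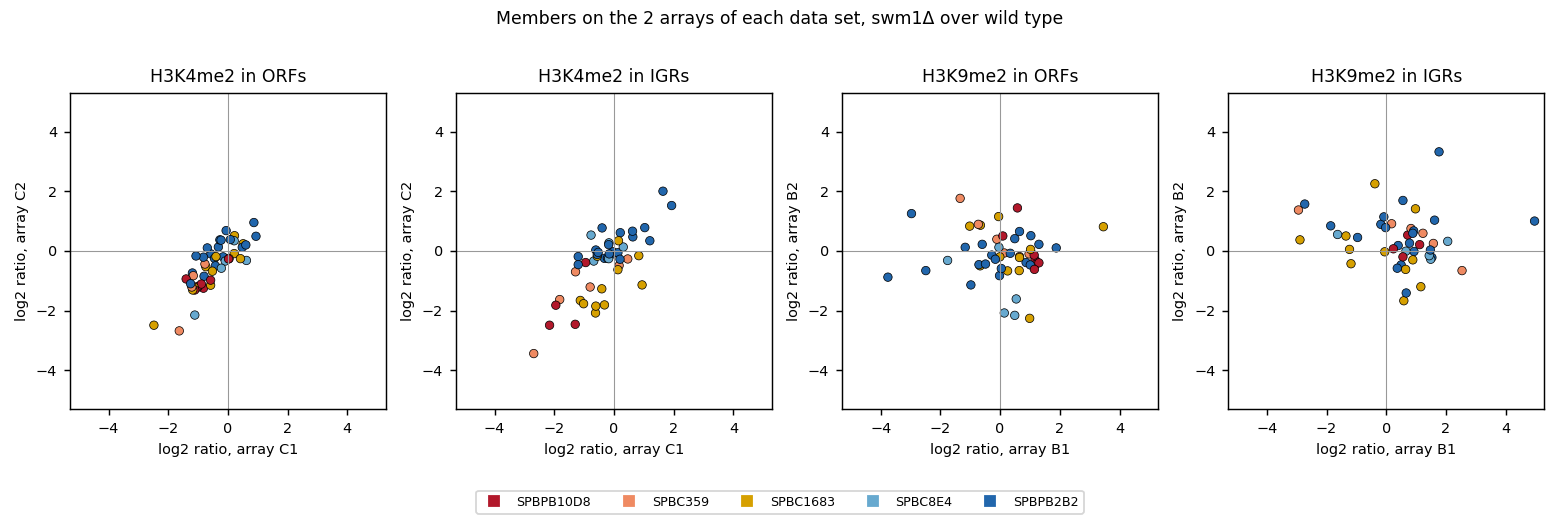
Log2 ratio of swm1Δ over wild type for each member on the first array (horizontal axis) and the second array (vertical axis) of each data set, coloured by clone. The H3K4me2 members lie along the diagonal (r = 0.815 in ORFs and 0.751 in IGRs) and the H3K9me2 members do not (r = −0.0686 and −0.137).

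Binding of Hrp1 and Hrp3 was read as the percentile rank of a feature's IP over input ratio within each array, from 0 (lowest) to 1 (highest), with the median over 3 arrays. A feature was called bound at a median rank of 0.90 for Hrp1 and 0.94 for Hrp3. For Hrp1, 2 of 49 ORF members (4.08%) were bound, against 4.49% of all ORF features, and 3 of 47 IGR members (6.38%) against 4.84%. For Hrp3, 1 ORF member (2.04%) was bound against 3.76%, and 0 IGR members against 3.22%. limma called 0 members with either protein, and 0.0% of all features, with the dyes as labelled; at an unadjusted p under 0.05 there were 4 (8.16%) and 3 (6.38%) members for Hrp1 in ORFs and IGRs, against 6.84% and 5.76% of all features, and 5 (10.2%) and 2 (4.26%) for Hrp3, against 6.53% and 4.13%.

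SPBC8E4.02c, a gene not found in RefSeq by this name, had ranks of 0.962, 0.984 and 0.933 for Hrp1 in its ORF on arrays 1, 2 and 3, and gal7 had 0.922, 0.981 and 0.931. Array 2 is one of those with a doubted direction, and with its ratio turned the ranks there were 0.016 and 0.020, while both genes stayed bound through arrays 1 and 3. For Hrp3, SPBC8E4.02c had 0.992, 0.337 and 0.950 and was therefore high on only 2 of 3 arrays. It was no longer bound without array 1, without array 3 or with the ratio of array 1 turned, where 4.15% of all ORF features were. Among IGRs, SPBPB2B2.06c, annotated as a phosphatase gene, had ranks for Hrp1 of 0.244, 0.936 and 0.949, SPBPB2B2.08 had 0.171, 0.942 and 0.975, and SPBPB2B2.19c had 0.348, 0.941 and 0.981. Array 1, whose deposited values follow the input dye, stood against the other arrays in all 3, and 0 IGR members were bound when array 2 or array 3 was left out.

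**Figure D4:**
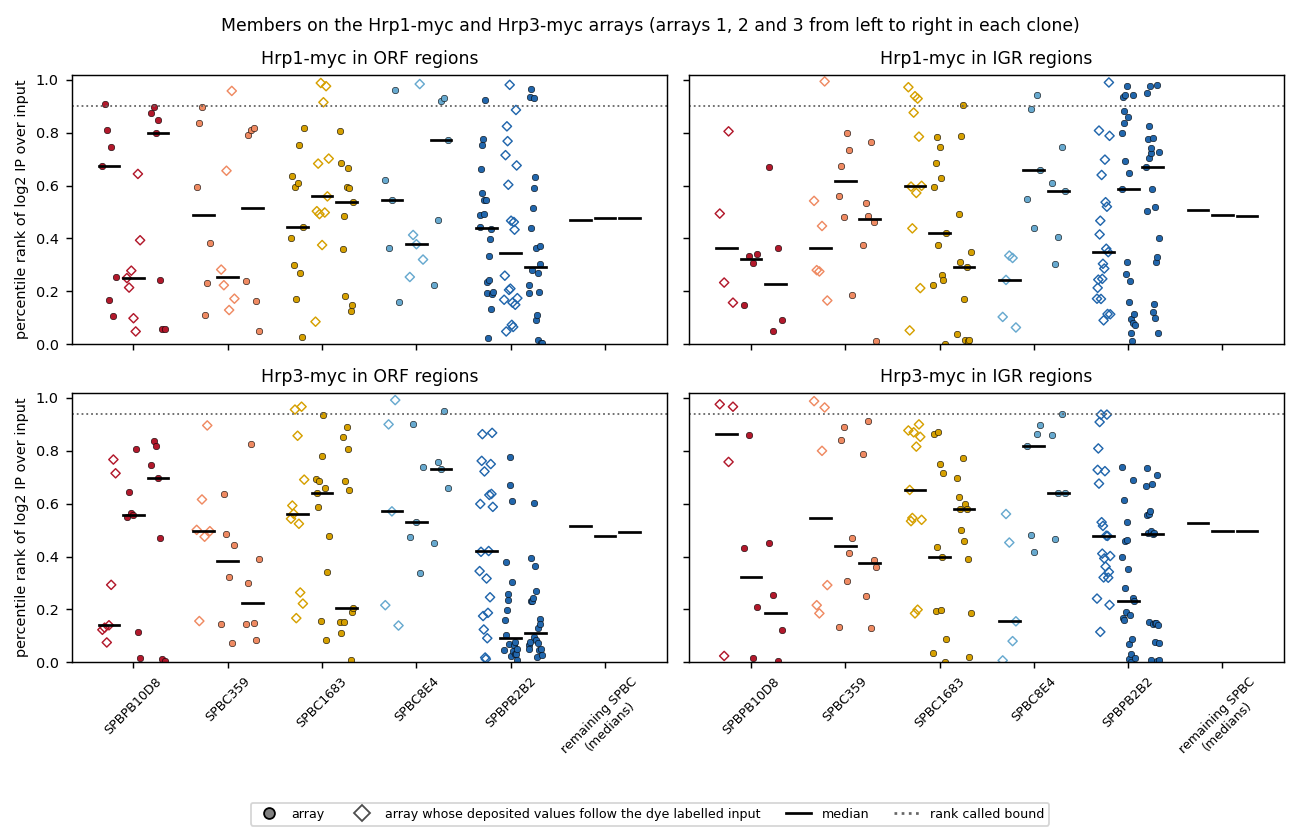
Percentile rank of the log2 ratio of IP over input (vertical axis) for each member on 3 arrays, grouped by clone (horizontal axis), with the medians of the remaining SPBC features at the right. Open diamonds are the 4 arrays whose deposited values follow the dye labelled input, thick lines are medians and dotted lines the rank called bound. In Hrp3 ORF regions the members of SPBPB2B2 had medians of 0.420, 0.090 and 0.112.

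Hrp3 in ORFs was low over the outer right arm. The median rank of the ORF members was 0.322, against 0.490 for the remaining SPBC features and 0.321 for subtelomeric clones of chromosome I. Within SPBPB2B2 the median rank was 0.162. On arrays 1, 2 and 3 the 20 members of that clone had medians of 0.420, 0.090 and 0.112, against 0.514, 0.477 and 0.493 for the remaining SPBC features. Arrays 2 and 3, which correlated positively with each other, thus put the median member of the clone close to a rank of 0.10. At a rank of 0.10 or less, a limit chosen after the values were seen, there were 10 of 49 members (20.4%), against 5.08% of all ORF features. Of these, 7 lay in SPBPB2B2, among them gal1 (0.868, 0.051 and 0.050), gal10 (0.633, 0.065 and 0.074) and ftm7 (0.317, 0.023 and 0.083). Turning the ratio of array 1 left 10 members at or below 0.10 and gave 1 member below input by limma, the deaminase gene SPBC1683.02 (ranks 0.033, 0.084 and 0.008, adjusted p = 0.044, against 0.633% of all features). In the turned reading limma put 0 members above input in any of the 4 sets, against 0.0204% of all features for Hrp1 in ORFs, 0.0403% for Hrp1 in IGRs, 2.51% for Hrp3 in ORFs and 2.2% for Hrp3 in IGRs. It put 0 other members below input, against 0.204% for Hrp1 in ORFs, 0.0% for Hrp1 in IGRs and 0.363% for Hrp3 in IGRs. Subtelomeric clones of chromosome I had 16.1% of ORF features at or below 0.10. In IGRs the members' median Hrp3 rank was 0.453, against 0.50, and 5 members (10.6%) were at or below 0.10 against 4.92% of all IGR features. Subtelomeric clones of chromosome I had a median IGR rank of 0.403, with 11.6% at or below 0.10. With the ratio of array 1 turned, the members' median was 0.434 against 0.496, 6 members (12.8%) were at or below 0.10, and 0 were bound against 3.85%. In the deposited values 3 of 46 (6.52%) were that low, against 7.58% of the remaining SPBC features.

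Hrp1 was nearer the middle. The median rank of the ORF members was 0.399, against 0.471 for the remaining SPBC features, and became 0.502 against 0.487 with the ratio of array 2 turned, when 3 members were bound against 4.78% of all features. In IGRs it was 0.535 against 0.492, and 0.459 against 0.482 with array 1 turned, when 3 members were bound against 5.6%. At or below a rank of 0.10 for Hrp1 there were 0 ORF members against 4.45% of all features, and 3 IGR members (6.38%) against 5.12%. Turned, there were 1 (2.04%) and 4 (8.51%). In the deposited ORF values, which are of 1 dye and not IP over input, there were 6 of 48 (12.5%), against 8.05% of the remaining SPBC features. The order of members and remaining features thus changed with the reading of 1 array. Of the genes with the largest H3K4me2 decreases, urh1 had Hrp1 ORF ranks of 0.593, 0.492 and 0.486 and Hrp3 ORF ranks of 0.956, 0.685 and 0.151, and pfl7 had 0.595, 0.282 and 0.237, and 0.501, 0.143 and 0.145. Neither was bound. Across the 49 ORF members the Spearman correlation of H3K4me2 means with rank was −0.0249 for Hrp1 and −0.0998 for Hrp3, given as a description over genes that are neighbours.

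The values deposited for histone H3 in hrp1Δ cells follow a single dye and cannot be told apart from those deposited for Hrp1-myc. Deposited Hrp1 values given elsewhere in the text are the same numbers apart from a constant, and no second result. The H3 values are given as deposited, with no test. Ranked within each array, the median over 48 ORF members was 0.523, against 0.503 for the remaining SPBC features. Over 44 IGR members it was 0.521 against 0.465. For subtelomeric clones of chromosome I the medians were 0.491 in ORFs and 0.603 in IGRs. SPBPB10D8 had the highest median of the clones in ORFs, 0.880, which came from the identical transporter genes. SPBPB10D8.04c had ranks of 0.972, 0.995 and 0.977, while SPBPB10D8.01 in the same clone had 0.004, 0.002 and 0.005. The IGRs of gal7 (0.983, 0.983 and 0.988) and of the adjacent tgd1, SPBPB2B2.11 (0.975, 0.986 and 0.951), were high, while the ORF of gal7 had 0.305, 0.096 and 0.020 and that of tgd1 0.009, 0.006 and 0.254. A value of 1 dye also carries the amount of DNA in a spot, and its part in these ranks was not tested.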

How the data were processed

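Spotted 2-colour arrays with 2 spots per feature were scanned by the authors, and the deposited scanner files hold the median intensity of signal and local background for each dye, uncorrected. The deposited ratios for the methylation arrays are log2 values after the authors' intensity-dependent Lowess normalization in GeneSpring. The deposited Hrp1 and Hrp3 values are log10 values, and the deposited H3 values log2 values, of a single dye normalised per chip by the authors. RefSeq ASM294v3 was used only for names, order and sequences.

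Background was corrected with normexp (offset 50). Methylation ratios were loess-normalised within each array, given as swm1Δ over wild type from the labelled dyes, and averaged over spots. limma 3.58.1 (R 4.3.3) tested the array means against 0 over all features, with 2 arrays and 1 residual degree of freedom per feature before moderation, and Benjamini-Hochberg adjustment. The script was tested on simulated data. Hrp ratios were centred on the array median without loess. For H3K9me2 in IGR regions B1 and B2 were both taken as deposited. Near copies were found with blastn 2.17.0. The number of arrays limits the precision.

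Members and gene lists were chosen with earlier results of these data known. Named were the up to 5 members furthest from 0 in each direction among those called by limma, or past 2.0 in all data points, the members bound, the highest and lowest H3K4me2 ORF member of each clone, and genes by role (galactose, phosphate, hexose, iron, maltose), with a few more chosen after their values were seen. Features marked missing (165 ORF and 208 IGR, 1 of them a member) and 859 control features were left out. The expression arrays were not used, since their features could not be named.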

Additional observations from a re-analysis of the deposited data

How the results depend on the processing

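H3K4me2 counts of lower members stayed within 1.5 times of those reported by limma under every setting run: 20 to 21 ORF members under median centring, no background correction, without dim spots and in the deposited ratios, and 8 to 12 IGR members. Over the members called and the settings run, 137 values kept the call and direction, 9 lost the call and 0 reversed. aat1 (ORF −0.57 and IGR −0.90 in the deposited ratios), the IGRs of SPBC1683.02 (−1.06) and SPBC1683.04 (−1.36) there, amf1 (−0.50 after median centring, −0.60 without dim spots) and the IGR of gal10 (0.83 to 0.90) accounted for these. The cause was not tested. Higher members fell to 1 in ORFs and 1 in IGRs with the deposited ratios, where 1 IGR passed the 2.0 rule and ftm7 was not analysed. Leaving out members with a near copy, a setting chosen after seeing the data, left 0 higher in ORFs, 1 in IGRs and 0 IGRs by the rule, and 16 lower ORF members. A cut-off of 1.5 gave 1 high and 19 low ORF members. Where no share over other features is printed, the counts in this section show only how the members' own calls moved.

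With 1 array left out, no test was possible, and the rule then needed 2 of 2 data points (1 of 1 for H3K4me2 in IGRs without C2), which changes the rule as well as the arrays. The H3K4me2 IGR count by the rule ran from 10 to 12 low and 2 to 4 high, and the median difference from −0.32 to −0.23. For H3K9me2, ORF members by the rule ran from 3 to 8 high and 5 to 5 low, the ORF median difference from −0.22 to 0.09, IGR members from 6 to 12 high and 3 to 8 low, and the IGR difference from 0.21 to 0.31. The ORF median difference of 0.03 turned to −0.14 with the B1 dyes of its ORF label, −0.22 with median centring, −0.01 in the deposited ratios and −0.03 without near copies, and the IGR difference became 0.38 without them. H3K9me2 ORF members by the rule were 2 high and 1 low with the B1 ORF label and in the deposited ratios, 1 and 0 with median centring, 3 and 4 at a cut-off of 1.5, and 1 low without background correction or without near copies, and 9 IGR members were high at 1.5.

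For Hrp1 in ORFs the members' median rank was 0.441 as a mean over arrays and 0.502 with the ratio turned. It was 0.438 to 0.485 with 1 array left out, and 0.529 in the deposited values. There 5 members (10.4%) were bound, against 6.31% of the remaining SPBC features. Bound Hrp1 IGR members were 0 by mean rank, 5 without background correction and 0 to 3 with 1 array left out. In the deposited values 7 (15.2%) were bound, against 6.93% of the remaining SPBC features and 21.2% of chromosome I subtelomeric clones. The bound Hrp3 ORF member was lost (0) by mean rank, without background correction and with the ratio turned. With 1 array left out 0 to 1 were bound, and in the deposited values 3 (6.25%), against 4.12% of the remaining SPBC features. The H3 ORF median rank ran from 0.432 to 0.522.

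No paired analysis was possible beyond that of the ratios, because each methylation array holds both strains in its dyes. The ratio tested was already paired within the array. For H3K9me2 in IGRs, centring the deposited ratios on each array median left the difference at 0.28 and 3 members high by the rule. Other normalizations and the filter on dim spots were not run there, since B1 has only deposited ratios here. Near copies were judged from coding sequences in place of proteins. Expression alternatives were not run. Precision is limited by 2 arrays per mark.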

Other observations

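The genes ght4 and frp1, which lie between mal1 and pcl1 but are on the arrays by symbol, were called in their ORFs and not in their IGRs, and the difference between the kinds of region was not tested. In swm1Δ over wild type, the H3K4me2 log2 ratios on C1 and C2 were −1.89 and −1.96 in the ght4 ORF but 0.10 and −0.25 in its IGR, and −0.76 and −1.56 in the frp1 ORF but −0.76 and −0.21 in its IGR. Neither IGR was called (limma adjusted p = 0.934 and 0.401). For H3K9me2 the frp1 ORF had −5.45 on B1 and 0.81 on B2, and the ght4 ORF had 1.05 and 0.07. For Hrp1 the ght4 ORF had ranks of 0.643, 0.199 and 0.066.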
